A study of Rattus norvegicus with 21 samples.

Results

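Late reperfusion with F against sham compares 3 libraries of the group MI6h_18h_F with 3 libraries of the group Sham, all bulk RNA sequencing of tissue labelled infarct zone from Sprague Dawley rats. In MI6h_18h_F the left anterior descending coronary artery was ligated for 6 h and then reperfused for 18 h, and an F follows the times in the sample names. The labels do not spell out the F, and the design text of the series names a pretreatment with fenofibrate, an agonist of the nuclear receptor PPARA. Sham hearts were the controls, with neither a ligation time nor an F in their names, so the injury and F differ together between both groups and cannot be told apart in this comparison. Every gene whose counts passed the filter on low values was a member, which gave 11742 of the 17085 gene symbols in the table. These 6 libraries belong to a series of 21 libraries in 7 groups of 3. The groups MI6h_R (ligation for 6 h, then reperfusion, no F), MI24h_F (ligation for 24 h, with F) and MI1h_23h_F (ligation for 1 h and reperfusion for 23 h, with F) were used to test where MI6h_18h_F differed from other injured hearts, and hearts were collected 24 h after ligation. The labels give no sex or age and do not tell whether replicate libraries came from separate rats, so the p-values measure the spread between libraries only. In bulk tissue, fewer cells of a type and less RNA per cell cannot be told apart.

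As background, the working heart takes most of its energy from the oxidation of fatty acids in mitochondria. The estrogen-related receptors ESRRA, ESRRB and ESRRG and the receptor PPARA, with the coactivator PPARGC1A, switch on the genes of fatty acid uptake, beta-oxidation, the citric acid cycle and the respiratory chain. When a coronary artery is closed, cardiomyocytes of the territory lose oxygen and die unless flow returns early, and neutrophils, then monocytes and macrophages enter the zone to clear the dead tissue before fibroblasts lay down a scar.

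MI6h_18h_F libraries held 13992288, 13425038 and 13528621 counts, and Sham libraries held 15642744, 16304733 and 17053737. Transcripts of the mitochondrial genome made up 17.9 ± 2.6% of all counts in MI6h_18h_F and 36.3 ± 2.54% in Sham (SD, n = 3 each). The trimmed-mean (TMM) scaling factors were 1.08 to 1.13 in MI6h_18h_F and 0.535 to 0.677 in Sham. Scaling by library size alone moved the median log2 fold change of all genes to 0.838, and TPM moved it to 0.86, from 0.0423 with TMM, so changes are given relative to the typical gene. Where another scaling moved the share of higher calls in a list by over 10 percentage points, its counts under library size alone, on TPM or both stand beside it. Counts with no scaling named are those with TMM. On principal components of the 21 libraries, the first of which held 52.4% of the variance, the Sham libraries lay at -128.8, -106 and -151.8, apart from all injured libraries. MI6h_18h_F 1 lay at -0.73 on it, beside the MI1h_23h_F libraries at -16.9 to 5.23, while MI6h_18h_F 2 and 4 lay at 37.6 and 44.1. MI6h_18h_F 1 also held more transcript of heart muscle cells, with summed sarcomere TPM of 18110, 10860 and 9140 in MI6h_18h_F 1, 2 and 4 against 41980, 40500 and 47510 in Sham 11, 31 and 41. The heart muscle markers Tnni3 and Myh6 were present in all 6 libraries, at the CPM given with the muscle genes. Sham 31 stood apart by macrophage genes and Sham 11 by interferon genes, as given beside those results.

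**Figure D1:**
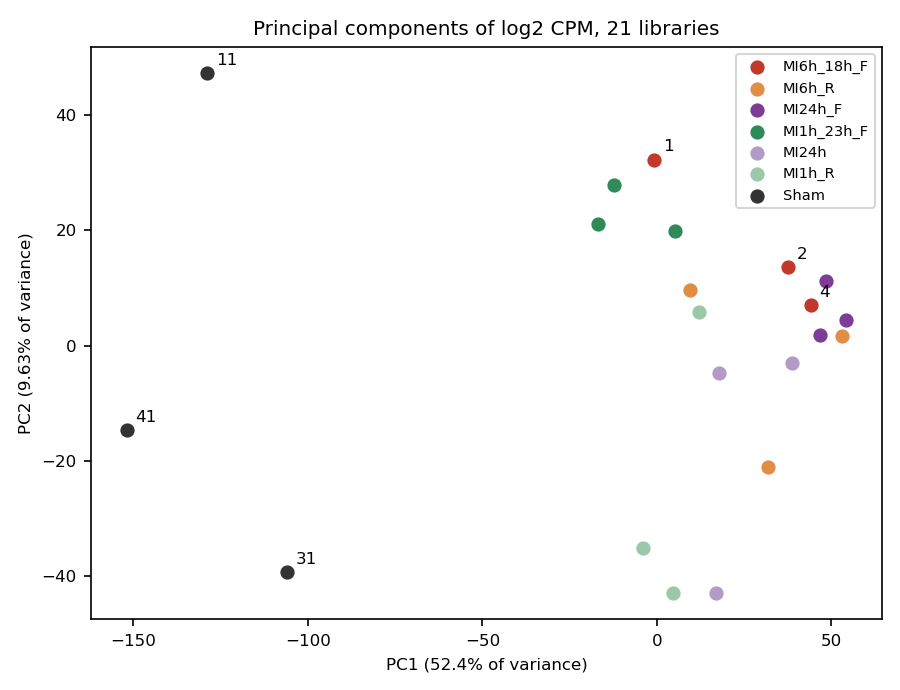
First and second principal component of log2 CPM of the 21 libraries, coloured by group, with the share of variance on each axis. The 3 Sham libraries sit at -151.8 to -106 on the first component, and MI6h_18h_F 1 sits at -0.73, apart from MI6h_18h_F 2 and 4 at 37.6 and 44.1.

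In the text, CPM are counts scaled to the TMM-scaled library size, given in the order of MI6h_18h_F 1, 2 and 4 and of Sham 11, 31 and 41. Log2 fold changes are MI6h_18h_F over Sham with a standard error derived from the F statistic of the test. A gene was called where the adjusted p of edgeR's quasi-likelihood test was under 0.05. MI6h_18h_F differed from Sham in 6712 of 11742 genes (57.2%), of which 3360 rose (28.6%) and 3352 fell (28.5%). A log2 fold change of at least 1 in size was seen for 2145 genes that rose (18.3%) and 2321 that fell (19.8%). CPM of both groups did not overlap for 3456 genes higher in MI6h_18h_F (29.4%) and for 3362 lower (28.6%). Of the called genes, 5089 (75.8%) kept their call whichever of the 6 libraries was left out. With so many genes called, a list is read against these shares and its median against the median of all genes. Leaving out any 1 of the 6 libraries kept all falls in the lists of complex I (32), complexes II to V (30) and the citric acid cycle (26), and it left 13 to 14 rises among neutrophil markers, 20 to 24 among cytokines, 18 to 19 among mitosis genes and 13 to 18 falls among sarcomere genes.

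**Figure D2:**
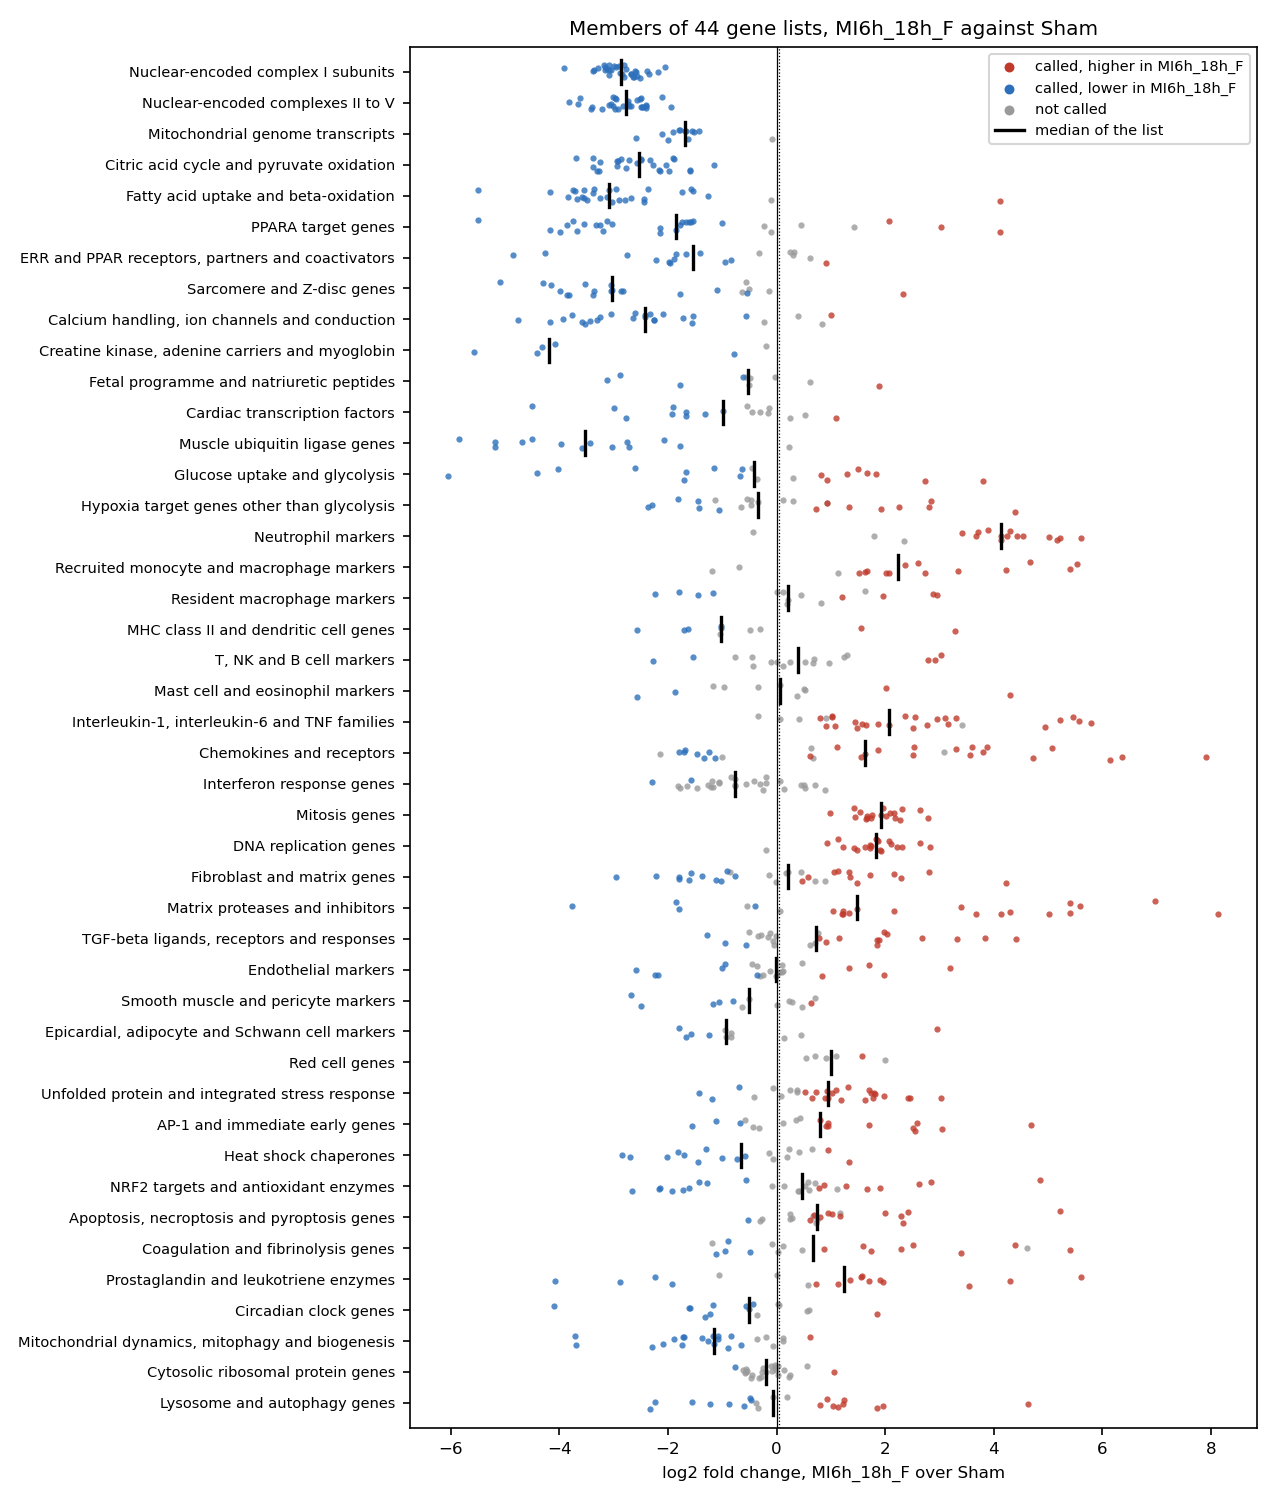
Log2 fold changes, MI6h_18h_F over Sham, of the tested members of 44 gene lists, 1 point per gene, red where called higher, blue where called lower and grey where not called, with the median of each list as a black bar and the median of all genes as a dotted line. Lists of mitochondrial energy metabolism and muscle lie to the left of the dotted line at 0.0423, and lists of neutrophils, cytokines and cell division lie to its right.

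Nuclear genes of the mitochondrial respiratory chain fell together. All 32 tested nuclear-encoded subunits of complex I, which feeds electrons from NADH into the chain, fell in MI6h_18h_F, against 28.5% of all genes, with a median log2 fold change of -2.87 and a range of -3.92 to -2.05. The subunit Ndufa13, at the lower end of that range, had 36.9, 20.3 and 34.3 CPM in MI6h_18h_F, against 294, 434 and 659 CPM in Sham. All 3 MI6h_18h_F libraries lay far below the lowest Sham library, with a log2 fold change of -3.92 ± 0.33 (edgeR adjusted p = 1.4e-07). Ndufb8, an accessory subunit, had 91.8, 59.9 and 79.9 CPM in MI6h_18h_F and 494, 594 and 935 CPM in Sham, again without overlap, and its log2 fold change was -3.13 ± 0.25 (edgeR adjusted p = 1.4e-07).

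Complexes II to V behaved in the same way, with 30 of 30 tested members down and a median of -2.78. Cox5b, a subunit of cytochrome c oxidase, measured 65.2, 34.7 and 50.3 CPM in MI6h_18h_F, against 447, 556 and 833 CPM in Sham, a log2 fold change of -3.61 ± 0.29 (edgeR adjusted p = 1.4e-07). Cyc1, the cytochrome c1 of complex III, measured 275, 195 and 186 CPM in MI6h_18h_F, against 1387, 1251 and 2018 CPM in Sham, a log2 fold change of -2.83 ± 0.24 (edgeR adjusted p = 1.4e-07). In both genes every MI6h_18h_F library was below every Sham library. Of the protein-coding genes of the mitochondrial genome, 12 of 13 fell, with a median of -1.69. COX1, the catalytic subunit of cytochrome c oxidase, reached 57670, 45570 and 34320 CPM in MI6h_18h_F, against 194700, 163300 and 233600 CPM in Sham, and did not overlap, with a log2 fold change of -2.10 ± 0.32 (edgeR adjusted p = 2.6e-05). On log2(TPM + 1), 6 of the 13 were still called lower, and none was called higher under either scaling.

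Genes of the pathways that feed the chain were lower too. All 26 tested genes of pyruvate entry and the citric acid cycle fell, with a median of -2.53. Pdhb, a subunit of the pyruvate dehydrogenase that admits pyruvate to the cycle, had 107, 86.6 and 75.4 CPM in MI6h_18h_F and 544, 588 and 936 CPM in Sham, and Idh3b, a subunit of isocitrate dehydrogenase, had 132, 99.1 and 91.9 CPM in MI6h_18h_F and 580.2, 578 and 964 CPM in Sham. Neither overlapped between groups, with log2 fold changes of -2.94 ± 0.26 and -2.71 ± 0.24 (edgeR adjusted p = 1.48e-07 for both). Of 29 tested genes of fatty acid uptake and oxidation, 27 fell and 1 rose, with a median of -3.08. Fabp3, the fatty acid binding protein of heart muscle, had 184, 37 and 26.1 CPM in MI6h_18h_F, against 2760, 2285 and 6129 CPM in Sham. MI6h_18h_F 1 held several times the CPM of the other MI6h_18h_F libraries and was still far below Sham, and the log2 fold change was -5.50 ± 0.78 (edgeR adjusted p = 1.34e-05). Acadvl, which opens the oxidation of very long chains, showed 124, 78.8 and 67 CPM in MI6h_18h_F and 640.2, 736 and 1210 CPM in Sham, with no overlap and a log2 fold change of -3.26 ± 0.31 (edgeR adjusted p = 2.72e-07). Slc25a20, the carrier that brings acylcarnitines into mitochondria, showed 53, 42.4 and 42.7 CPM in MI6h_18h_F and 297, 285 and 555 CPM in Sham, a log2 fold change of -3.04 ± 0.23 (edgeR adjusted p = 1.4e-07).

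The 1 gene of that list that rose was Cd36, a fatty acid translocase of muscle that is also a scavenger receptor of macrophages. Its CPM were 75.5, 162 and 164 in MI6h_18h_F, against 1.42, 17.7 and 3.84 in Sham, with no overlap and a log2 fold change of 4.11 ± 0.64 (edgeR adjusted p = 3.48e-05). Sham 31 was the highest Sham library, and the table holds identical counts for Cd36 and RGD1565355, so both rows cannot be separated. Cpt1a, the carnitine palmitoyltransferase best known from liver, was the other gene of the list that did not fall, with 85.5, 87.4 and 123 CPM in MI6h_18h_F and 119, 77.7 and 119 CPM in Sham, overlapping groups and a log2 fold change of -0.09 ± 0.18 (edgeR adjusted p = 0.678).

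Targets reported for PPARA, the receptor that fenofibrate activates, mostly fell. Of 29 tested, 3 rose, 22 fell and 4 were not called, with a median of -1.85. The 3 that rose were Cd36, Plin2 and Angptl4. Plin2, a coat protein of lipid droplets, had 436, 824 and 772 CPM in MI6h_18h_F, against 122, 235 and 126 CPM in Sham, a log2 fold change of 2.07 ± 0.32 without overlap (edgeR adjusted p = 2.97e-05). Angptl4, a secreted inhibitor of lipoprotein lipase, had 60.2, 222 and 167 CPM in MI6h_18h_F, against 3.4, 38.9 and 12.9 CPM in Sham, a log2 fold change of 3.02 ± 0.60 without overlap (edgeR adjusted p = 0.000331). MI6h_18h_F 1 had the lowest CPM of its group for all 3 and Sham 31 the highest of its own. Those that fell included Acadm, the medium-chain acyl-CoA dehydrogenase, with 144, 75.4 and 58.9 CPM in MI6h_18h_F and 1067, 1456 and 2460 CPM in Sham (log2 fold change -4.16 ± 0.44, edgeR adjusted p = 7.19e-07, no overlap).

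The receptors and coactivators themselves were mostly lower with TMM scaling. Esrra measured 52.7, 56.4 and 50.2 CPM in MI6h_18h_F, against 154, 186 and 249 CPM in Sham, with tight MI6h_18h_F values, no overlap and a log2 fold change of -1.89 ± 0.17 (edgeR adjusted p = 1.81e-07). Esrrg, a family member found in heart and muscle, measured 14.9, 6.85 and 4.73 CPM in MI6h_18h_F, against 50.4, 18.6 and 27.1 CPM in Sham, also without overlap, at -1.85 ± 0.44 (edgeR adjusted p = 0.00161). Esrrb was scarce in both groups, with 1.26, 0.346 and 0.591 CPM in MI6h_18h_F and 8.69, 2 and 4.28 CPM in Sham, and fell by 2.75 on the log2 scale (edgeR adjusted p = 0.00271). Perm1, a muscle regulator that works with these receptors, had 42.5, 9 and 1.12 CPM in MI6h_18h_F and 426, 215 and 375 CPM in Sham, no overlap and a log2 fold change of -4.27 ± 0.79 (edgeR adjusted p = 0.000188). Ppara had 7.03, 1.18 and 2.3 CPM in MI6h_18h_F and 26.9, 5.73 and 8.44 CPM in Sham, so that MI6h_18h_F 1 lay above Sham 31. Its log2 fold change was -1.96 ± 0.69 (edgeR adjusted p = 0.0211), and it became -2.97 without MI6h_18h_F 1 and -1.0 without Sham 11. The call of Ppara was lost without Sham 11 and without MI6h_18h_F 2 or 4. Ppargc1a had 10, 3.6 and 0.919 CPM in MI6h_18h_F and 32.3, 9.01 and 16.1 CPM in Sham, with overlap, a log2 fold change of -1.98 ± 0.80 (edgeR adjusted p = 0.0412), and -3.08 without MI6h_18h_F 1. The call of Ppargc1a was lost without MI6h_18h_F 2 or 4 and without Sham 11 or 41, and held without Sham 31. Rxrg, a retinoid X receptor that pairs with these receptors, had 12.8, 2.28 and 1.05 CPM in MI6h_18h_F and 136, 118 and 215 CPM in Sham (log2 fold change -4.86 ± 0.82, edgeR adjusted p = 7.62e-05, no overlap). Over the list of receptors and coregulators, 1 of 18 rose and 12 fell with a median of -1.54, and the split was 6 up and 7 down under library size alone and 6 up and 5 down on TPM. The 1 that rose was Nrf1, an activator of nuclear genes for mitochondrial proteins, with 18.1, 17.5 and 17.9 CPM in MI6h_18h_F and 12.7, 8.1 and 7.79 CPM in Sham (log2 fold change 0.91 ± 0.21, edgeR adjusted p = 0.00148, no overlap).

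**Figure D3:**
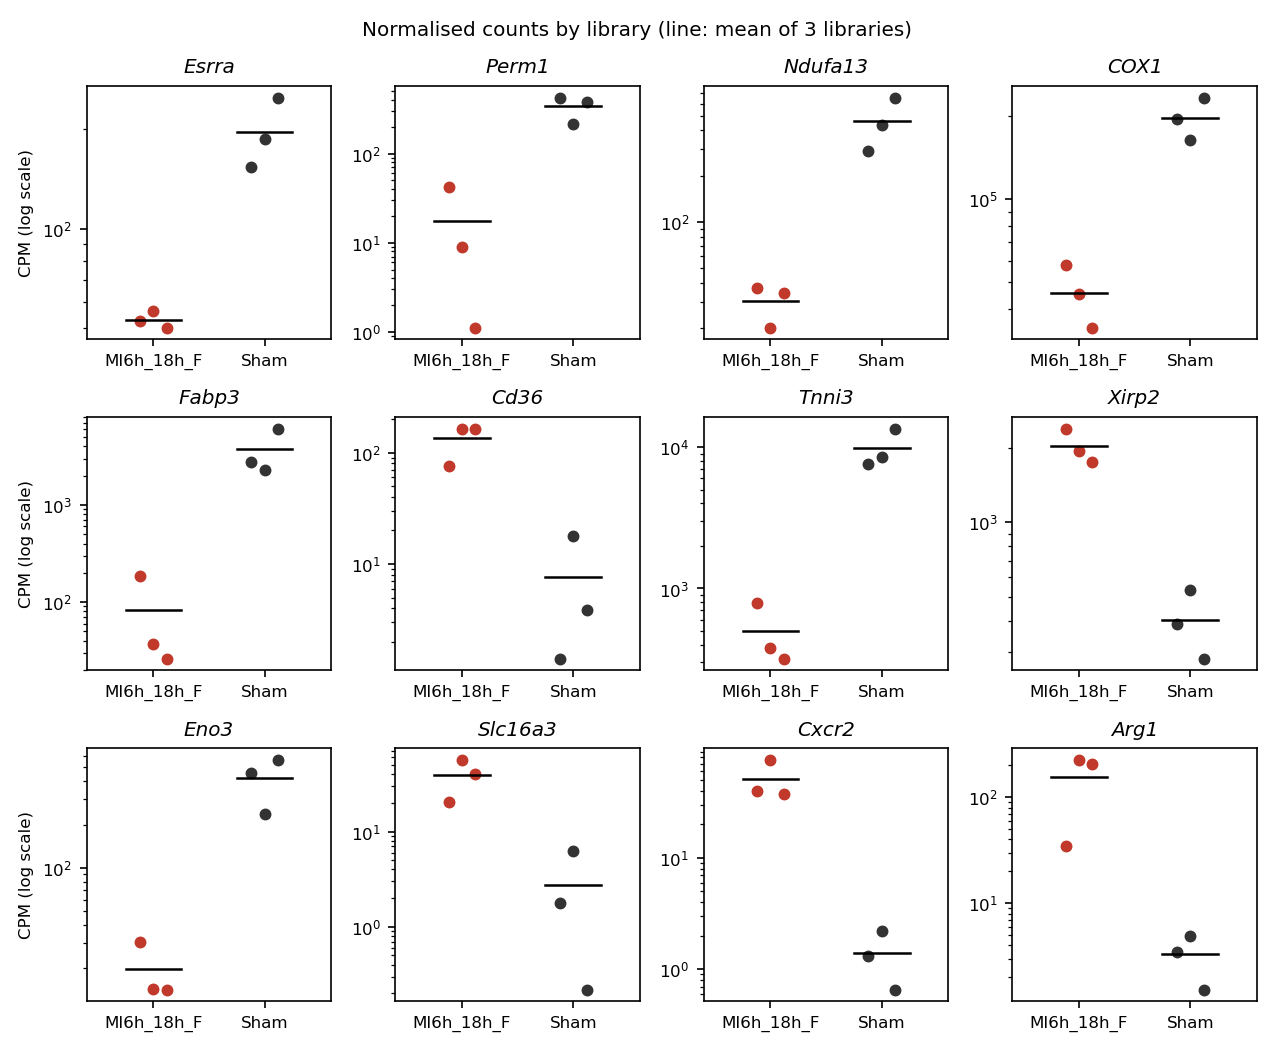
CPM on a log axis in each library of MI6h_18h_F (left) and Sham (right) for 12 genes, with the group mean as a line. Esrra, Perm1, Ndufa13, COX1, Fabp3, Tnni3 and Eno3 are lower in all 3 MI6h_18h_F libraries than in any Sham library, and Cd36, Xirp2, Slc16a3, Cxcr2 and Arg1 are higher in all 3.

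Promoters of list members were searched for 13 short motifs in 25 pairings of a motif with a list, spelled out below, on both strands of the 250 bases before and 50 after the RefSeq start of each gene (build GRCr8). Motifs and pairings were chosen after the results of the lists were known, 641 of the 849 list genes tested had a promoter in the table, and a match is a description only. No promoter matched in 10 of the 25 pairings. Shares are given over all promoters and over the 9076 promoters of tested genes, which list members are drawn from. An ERR half-site spelled TCAAGGTCA, the letters bound by the estrogen-related receptors, stood in 2 of 25 promoters of complexes II to V (8.0%). It stood in 0.412% of all 27457 promoters and in 0.275% of those of tested genes. It stood in none of the promoters of complex I, the citric acid cycle or fatty acid oxidation, and a PPAR site, AGGTCA repeated with 1 base between, stood in none of the promoters of PPARA targets or fatty acid oxidation. The palindrome bound by NRF1 stood in 2 of 25 promoters of complexes II to V (8.0%) and in none of complex I or mitochondrial upkeep. It stood in 0.932% of all promoters and in 1.82% of those of tested genes. The genes with the ERR half-site were Sdhd and Atp5mc3, and they are named for that match. Atp5mc3 encodes a subunit of the membrane ring of ATP synthase and had 336, 261 and 186 CPM in MI6h_18h_F, against 1285, 1571 and 2178 CPM in Sham (log2 fold change -2.68 ± 0.29, edgeR adjusted p = 9.91e-07, no overlap). Its promoter (GRCr8 chr3:79220615-79220914, minus strand) is shown with the half-site, which reads on the opposite strand, in capitals.
Atp5mc3: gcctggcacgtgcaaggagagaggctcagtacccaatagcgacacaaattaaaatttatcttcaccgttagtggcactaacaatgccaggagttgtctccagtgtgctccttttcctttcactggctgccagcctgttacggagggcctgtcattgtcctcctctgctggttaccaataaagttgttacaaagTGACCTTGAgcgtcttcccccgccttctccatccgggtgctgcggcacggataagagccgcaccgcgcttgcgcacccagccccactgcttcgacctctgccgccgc

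Heart muscle genes made up many of the largest falls. Of 22 tested sarcomere and Z-disc genes, 17 fell and 1 rose, with a median of -3.03. Tnni3, the cardiac troponin I that makes contraction sensitive to calcium, had 795, 382 and 319.7 CPM in MI6h_18h_F, against 7536, 8440 and 13520 CPM in Sham, with no overlap and a log2 fold change of -4.30 ± 0.50 (edgeR adjusted p = 1.81e-06). Myh6, the fast cardiac myosin heavy chain, had 942, 279 and 245 CPM in MI6h_18h_F, against 21380, 6660 and 22290 CPM in Sham, a log2 fold change of -5.10 ± 0.65 (edgeR adjusted p = 4.07e-06). In both genes MI6h_18h_F 1 was the highest of its group and still below each Sham library.

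The 1 sarcomere list member that rose was Xirp2, an actin-binding protein of the intercalated disc. Xirp2 had 2387, 1933 and 1756 CPM in MI6h_18h_F, against 389, 535 and 282 CPM in Sham, with no overlap and a log2 fold change of 2.33 ± 0.27 (edgeR adjusted p = 1.69e-06). 4 members were not called, among them Des, the intermediate filament of muscle, with 3313, 2919 and 2347 CPM in MI6h_18h_F and 3151, 5423 and 4767 CPM in Sham. Des overlapped between groups, at -0.64 ± 0.29 on the log2 scale (edgeR adjusted p = 0.0717).

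A MEF2-like motif, CTA and TAG with 4 bases between them, stood in 5 of 17 promoters of the sarcomere list (29.4%), in 2 of 9 of the muscle ubiquitin ligases, in none of 18 of the calcium and channel genes, and in 3.83% of all promoters. Of promoters of tested genes, 2.99% held it. MEF2 proteins are transcription factors of muscle. Mybpc3 and Myoz2 are named for their matches, after their values were seen. The matches of the sarcomere list are shown with the fixed letters in capitals, so that the 4 free letters can be compared between genes that fell, rose and were not called.
Mybpc3: CTAtattTAG
Myoz2: CTAtataTAG
Smpx: CTAtattTAG
Xirp2: CTAaaaaTAG
Des: CTAcaaaTAG

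Mybpc3 (cardiac myosin-binding protein C, log2 fold change -3.52 ± 0.53), Myoz2 (a Z-disc protein, -3.36 ± 0.51) and Smpx (-3.02 ± 0.38) fell, with edgeR adjusted p of 2.48e-05, 2.48e-05 and 3.66e-06. CPM of Mybpc3 were 458, 176 and 114 in MI6h_18h_F, against 1972, 2448 and 4169 in Sham, with no overlap. The match lies 109 bases before the start of Mybpc3, and the window (GRCr8 chr3:97550811-97551110, plus strand) reads as follows with the match in capitals.
Mybpc3: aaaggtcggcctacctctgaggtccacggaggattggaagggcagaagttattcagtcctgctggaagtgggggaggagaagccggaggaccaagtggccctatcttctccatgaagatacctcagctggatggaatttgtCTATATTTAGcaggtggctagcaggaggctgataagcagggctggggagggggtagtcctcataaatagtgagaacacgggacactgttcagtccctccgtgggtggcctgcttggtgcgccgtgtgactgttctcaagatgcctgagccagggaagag

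Calcium handling and ion channel genes fell in 22 of 26 tested cases and rose in 1, with a median of -2.42, and 18 fell and 4 rose on TPM. Atp2a2, the pump that returns calcium to the sarcoplasmic reticulum, had 1938, 1132 and 706 CPM in MI6h_18h_F and 14220, 9888 and 16680 CPM in Sham, with no overlap and a log2 fold change of -3.43 ± 0.38 (edgeR adjusted p = 9.91e-07). Casq2, the calcium buffer of that store, had 214, 118 and 81.2 CPM in MI6h_18h_F and 1140, 519 and 932 CPM in Sham (-2.65 ± 0.36, edgeR adjusted p = 7.6e-06, no overlap). The gene that rose was Gja5, a connexin of atrial, conduction and endothelial cells, with 39.4, 34.7 and 27.2 CPM in MI6h_18h_F and 18.5, 12.7 and 19.6 CPM in Sham (0.997 ± 0.36, edgeR adjusted p = 0.0252, no overlap), a call that was lost without MI6h_18h_F 1 or 2 and without Sham 31. Genes of phosphate and oxygen transfer fell in 5 of 6 tested cases, with a median of -4.20, and 4 fell and 1 rose under library size alone and on TPM. Ckm, the muscle creatine kinase, had 489, 178 and 123 CPM in MI6h_18h_F and 4547, 3902 and 7293 CPM in Sham (-4.32 ± 0.53, edgeR adjusted p = 3.22e-06, no overlap). Slc2a4, the insulin-regulated glucose transporter of muscle, had 23.2, 5.47 and 1.97 CPM in MI6h_18h_F and 459.8, 331 and 664 CPM in Sham (-5.57 ± 0.77, edgeR adjusted p = 9.51e-06, no overlap).

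Ubiquitin ligases and adaptors of muscle fell in 13 of 14 tested cases, with a median of -3.52. Trim63, the ligase MuRF1 that tags myosin for breakdown, had 18.9, 10.7 and 5.19 CPM in MI6h_18h_F and 110.2, 126 and 184 CPM in Sham (-3.59 ± 0.47, edgeR adjusted p = 5.32e-06, no overlap). Transcription factors of the heart were more even, with 1 of 17 up, 9 down and a median of -0.985, and 4 up and 4 down under library size alone and 6 up and 4 down on TPM. Nkx2-5, which sets cardiac identity, had 31.4, 24.2 and 15.4 CPM in MI6h_18h_F and 148, 152 and 185 CPM in Sham (-2.77 ± 0.38, edgeR adjusted p = 9.77e-06, no overlap). Klf15, a factor of metabolic gene control in heart, had 11.1, 3.94 and 0.722 CPM in MI6h_18h_F and 107, 107 and 146 CPM in Sham (-4.51 ± 0.77, edgeR adjusted p = 8.6e-05, no overlap).

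Genes of the fetal program and of stretch, which failing hearts are known to raise, counted 1 of 10 up and 4 down with a median of -0.532. The median turned to 0.224 under library size alone (1 up, 2 down) and to 0.588 on TPM (3 up, 2 down). The natriuretic peptide Nppa had 851, 951 and 621 CPM in MI6h_18h_F and 148, 1375 and 62.1 CPM in Sham. Sham 31 alone was above every MI6h_18h_F library, the log2 fold change was 0.61 ± 0.67 (edgeR adjusted p = 0.452), and without Sham 31 it was 2.98 (edgeR adjusted p = 6.95e-06). Myh7, the slow myosin heavy chain, had 1747, 581 and 320.1 CPM in MI6h_18h_F and 1724, 6073 and 1237 CPM in Sham, again with Sham 31 highest. Myh7 was called at -1.77 ± 0.62 (edgeR adjusted p = 0.0203), and without Sham 31 its log2 fold change was -0.72 (edgeR adjusted p = 0.282). The call of Myh7 was also lost without MI6h_18h_F 2 or 4, and without MI6h_18h_F 1 the log2 fold change was -2.74. The gene of the list that rose was Gdf15, a stress-induced cytokine, with 6.83, 12.6 and 11.3 CPM in MI6h_18h_F and 2.17, 3.82 and 2.3 CPM in Sham (1.88 ± 0.44, edgeR adjusted p = 0.0013, no overlap).

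Genes of glucose metabolism moved in both directions. Of 20 tested genes of glucose uptake and glycolysis, 8 rose and 9 fell with a median of -0.409, but the split was 10 up and 6 down under library size alone and 12 up and 6 down on TPM. Those that rose included Slc16a3, the lactate exporter MCT4, with 20.6, 57 and 40.5 CPM in MI6h_18h_F, against 1.79, 6.19 and 0.219 CPM in Sham, no overlap and a log2 fold change of 3.81 ± 0.65 (edgeR adjusted p = 8.27e-05). Slc2a1, the glucose transporter found in most cell types, had 48, 153 and 84.5 CPM in MI6h_18h_F, against 29.9, 29.4 and 30.7 CPM in Sham (1.67 ± 0.34, edgeR adjusted p = 0.000505, no overlap). Eno1, the widespread enolase, had 966, 1541 and 1416 CPM in MI6h_18h_F, against 630.4, 799.7 and 783 CPM in Sham (0.83 ± 0.19, edgeR adjusted p = 0.00107, no overlap). The muscle enolase Eno3 went the other way, with 30.5, 14.3 and 14.2 CPM in MI6h_18h_F, against 457, 236 and 568 CPM in Sham, no overlap and a log2 fold change of -4.42 ± 0.44 (edgeR adjusted p = 4.4e-07). Pgam2, the muscle phosphoglycerate mutase, had 21.8, 5.05 and 5.97 CPM in MI6h_18h_F, against 568, 443 and 1164 CPM in Sham (-6.05 ± 0.74, edgeR adjusted p = 2.82e-06, no overlap). The trioses' isomerase Tpi1, which has no muscle isoform, had 299, 376 and 359 CPM in MI6h_18h_F, against 928, 957 and 1497 CPM in Sham (-1.71 ± 0.20, edgeR adjusted p = 2.04e-06, no overlap).

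Of 23 hypoxia targets, 8 rose and 6 fell with a median of -0.343, near the shares of all genes (28.6% up, 28.5% down). The counts were 10 up and 4 down under library size alone and 11 up and 2 down on TPM. Hif1a, the oxygen-sensing subunit of the hypoxia-inducible factor, had 288, 715 and 622 CPM in MI6h_18h_F, against 114, 126 and 102 CPM in Sham (2.25 ± 0.29, edgeR adjusted p = 4.26e-06, no overlap). Vegfa, the growth factor of vessels, fell, with 60.5, 106 and 48.9 CPM in MI6h_18h_F, against 320.0, 309 and 474 CPM in Sham (-2.36 ± 0.34, edgeR adjusted p = 1.59e-05, no overlap). Egln1, an oxygen sensor that marks HIF for breakdown, had 81.5, 97.9 and 71.1 CPM in MI6h_18h_F, against 222, 182 and 268 CPM in Sham (-1.42 ± 0.19, edgeR adjusted p = 8.26e-06, no overlap). The core letters ACGTG of a HIF site stood in 9 of 15 promoters of this list (60%). They stood in 8 of 19 promoters of the glycolysis list (42.1%) and in 19.7% of all promoters. Among promoters of tested genes the core stood in 2271 of 9076, a larger share than among all promoters. Of the 9 hypoxia targets with the core, 3 rose and 3 fell, and of the 8 glycolytic genes, 3 rose and 5 fell.

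**Figure D4:**
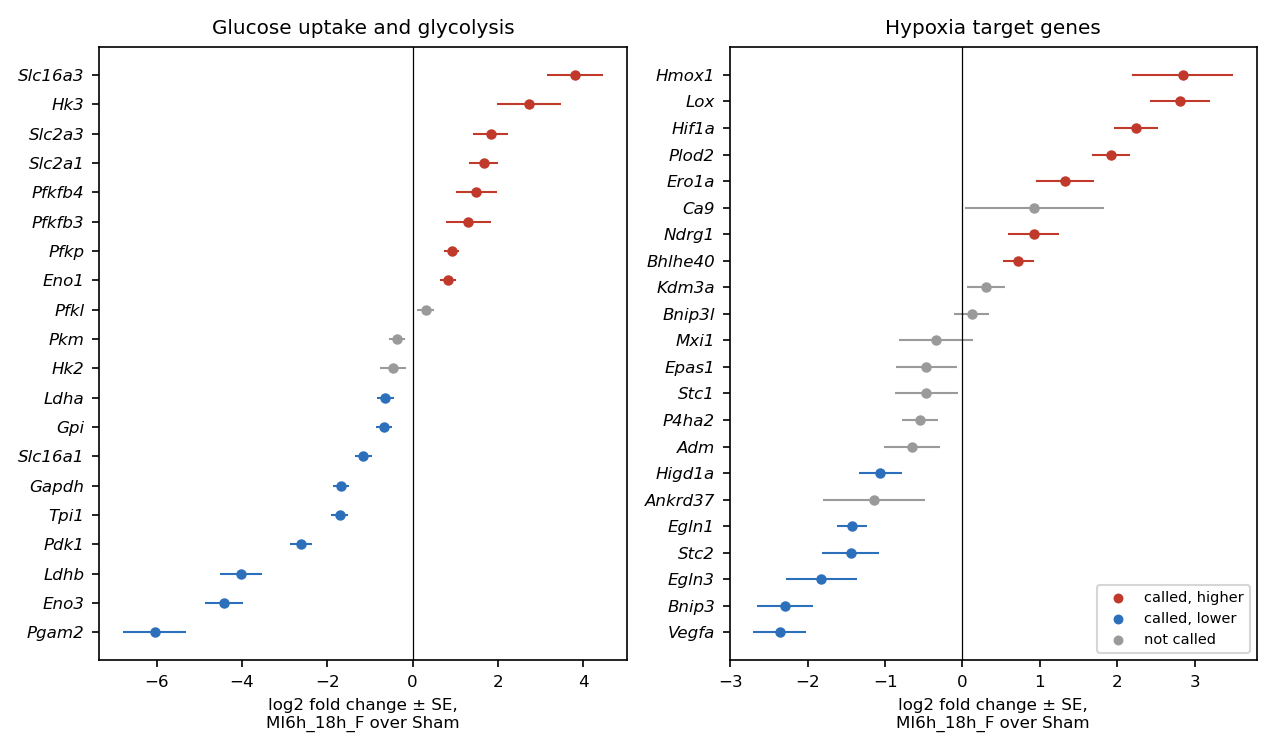
Log2 fold changes, MI6h_18h_F over Sham, with standard errors, of the tested genes of glucose uptake and glycolysis (left) and of the hypoxia targets (right), red where called higher, blue where called lower and grey where not called. Pgam2 and Eno3 lie lowest among the glycolytic genes and Slc16a3 highest, and Vegfa lies lowest among the hypoxia targets, of which 22 are drawn.

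Neutrophil genes were higher. Of 17 tested neutrophil markers, 14 rose and none fell, against 28.6% of all genes that rose, with a median of 4.14. Lcn2, Retnlg and Elane were the 3 not called (edgeR adjusted p = 0.611, 0.0546 and 0.313). Cxcr2, the receptor that draws neutrophils to chemokines, had 39.5, 76.3 and 37.4 CPM in MI6h_18h_F, against 1.32, 2.18 and 0.658 CPM in Sham, with no overlap and a log2 fold change of 5.17 ± 0.66 (edgeR adjusted p = 4.29e-06). Ltb4r, the receptor for leukotriene B4, had 30.8, 37.4 and 43.5 CPM in MI6h_18h_F, against 0.378, 0.637 and 1.32 CPM in Sham (5.60 ± 0.48, edgeR adjusted p = 1.4e-07, no overlap). The granule genes Ltf and Cd177 had no count in either group and Mpo none in Sham. Summed TPM of the list were 3384, 3569 and 3447 in MI6h_18h_F and 63.3, 265.0 and 93.7 in Sham.

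Markers of recruited monocytes and macrophages rose in 13 of 16 tested cases and fell in none, with a median of 2.23. Arg1, the arginase of activated macrophages in rodents, had 34.6, 227 and 204 CPM in MI6h_18h_F, against 3.5, 4.91 and 1.53 CPM in Sham, so that MI6h_18h_F 1 was well below the other libraries of its group and above Sham, with a log2 fold change of 5.53 ± 0.60 (edgeR adjusted p = 8.72e-07). Vcan, a proteoglycan made by monocytes and fibroblasts, had 901, 1795 and 2054 CPM in MI6h_18h_F, against 55.8, 105 and 24.7 CPM in Sham (4.67 ± 0.54, edgeR adjusted p = 1.49e-06, no overlap). Mmp12, the macrophage elastase, had 162, 235 and 168 CPM in MI6h_18h_F, against 0.0945, 12.7 and 0.11 CPM in Sham, where Sham 31 carried nearly all Sham transcript. The log2 fold change of Mmp12 was 5.41 ± 0.94 (edgeR adjusted p = 0.000101) and 10.80 without Sham 31. Summed TPM of this list were 9715, 12110 and 15490 in MI6h_18h_F and 202.3, 2281 and 166.5 in Sham, and the part of the high Sham 31 value in the other results was not tested beyond leaving that library out.

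Of 15 markers of resident macrophages, 4 rose and 4 fell with a median of 0.208, near the shares of all genes (28.6% up, 28.5% down). Under library size alone and on TPM, 9 rose and 2 fell. Mertk, the receptor with which macrophages take up dead cells, had 32.6, 35.3 and 51 CPM in MI6h_18h_F, against 8.12, 4.55 and 3.4 CPM in Sham (2.88 ± 0.34, edgeR adjusted p = 1.76e-06, no overlap). Mrc1, the mannose receptor, had 256, 246 and 322 CPM in MI6h_18h_F, against 59.1, 106 and 45.5 CPM in Sham (1.97 ± 0.32, edgeR adjusted p = 5.7e-05, no overlap). C1qa, a chain of complement C1q, was lower, with 36.1, 26.5 and 21.5 CPM in MI6h_18h_F, against 82.2, 85.5 and 126 CPM in Sham (-1.80 ± 0.27, edgeR adjusted p = 2.22e-05, no overlap). Class II and dendritic cell genes counted 2 of 10 up and 5 down with a median of -1.03, 2 up and 2 down under library size alone, and 2 up and 1 down on TPM. Cd74, the chaperone of class II molecules, had 262, 281 and 254 CPM in MI6h_18h_F, against 601, 939.6 and 1050 CPM in Sham (-1.70 ± 0.27, edgeR adjusted p = 3.59e-05, no overlap), while Itgax, the integrin CD11c, had 67.1, 89.9 and 70.4 CPM in MI6h_18h_F, against 9.54, 9.46 and 4.17 CPM in Sham (3.29 ± 0.41, edgeR adjusted p = 3.55e-06, no overlap).

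Lymphocyte markers counted 3 of 18 up and 2 down with a median of 0.388, and 9 up and 1 down under library size alone. Cd8a rose, with 117, 87.3 and 86.2 CPM in MI6h_18h_F, against 4.44, 31.8 and 5.48 CPM in Sham (2.79 ± 0.63, edgeR adjusted p = 0.00108, no overlap), and Sham 31 again was the highest Sham library, without which the log2 fold change was 4.33. Nkg7, a granule protein of killer cells, fell, with 3.12, 1.87 and 2.43 CPM in MI6h_18h_F, against 7.65, 13.4 and 15 CPM in Sham (-2.27 ± 0.41, edgeR adjusted p = 0.000154, no overlap). Mast cell and eosinophil markers were sparse, with 2 of 11 up, 2 down and a median of 0.0627, and 3 up and 1 down under library size alone and 4 up and none down on TPM. Epx, the eosinophil peroxidase, had no count in either group.

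Cytokines and their receptors rose in 24 of 29 tested cases and fell in none, with a median of 2.07, and 28 rose with none down under library size alone. Csf1, the growth factor of macrophages, had 204, 214 and 232 CPM in MI6h_18h_F, against 58.8, 69 and 50.4 CPM in Sham (1.86 ± 0.17, edgeR adjusted p = 2.15e-07, no overlap). Il1r2, a decoy receptor that binds interleukin 1 without signalling, had 37, 71.7 and 52.1 CPM in MI6h_18h_F, against 0.85, 3.09 and 0.219 CPM in Sham (5.21 ± 0.76, edgeR adjusted p = 1.68e-05, no overlap). Nlrp3, the sensor of an inflammasome, had 30.9, 42.1 and 28.9 CPM in MI6h_18h_F, against 3.87, 10.6 and 5.04 CPM in Sham (2.37 ± 0.35, edgeR adjusted p = 2.17e-05, no overlap). Il1rl1, the receptor of interleukin 33, had 26.5, 27.1 and 29.8 CPM in MI6h_18h_F, against 4.16, 3.27 and 2.19 CPM in Sham (3.11 ± 0.44, edgeR adjusted p = 1.16e-05, no overlap). Each of these 4 genes was higher in every MI6h_18h_F library than in any Sham library. The AP-1 site TGANTCA stood in 5 of 22 promoters of the cytokine list (22.7%), in 4 of 18 of the protease list (22.2%), in none of the immediate early genes, and in 7.33% of all promoters. Of promoters of tested genes, 5.09% held it.

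Chemokines and their receptors rose in 17 of 29 cases and fell in 7, with a median of 1.63, and with 18 up and 1 down under library size alone and 18 up and none down on TPM. Ccl12, a ligand of the monocyte receptor CCR2, had the largest rise among called genes of at least 10 CPM without overlap, with 105, 202 and 140.0 CPM in MI6h_18h_F, against 1.79, 3.73 and 0.658 CPM in Sham (6.14 ± 0.73, edgeR adjusted p = 2.13e-06, no overlap). Ccl2, another CCR2 ligand, had 552, 1006 and 842 CPM in MI6h_18h_F, against 6.33, 79.5 and 5.15 CPM in Sham, with Sham 31 highest in its group (4.72 ± 0.72, edgeR adjusted p = 2.91e-05, and 7.16 without Sham 31). Ackr3, a scavenging receptor for CXCL12, fell, with 66.6, 74.2 and 40.8 CPM in MI6h_18h_F, against 178, 135 and 185 CPM in Sham (-1.46 ± 0.25, edgeR adjusted p = 9.83e-05, no overlap). Some ligands had no count in any Sham library. Cxcl3 was at least 6.98-fold higher, Ccl17 at least 2.37-fold higher, and the cytokine Csf3 at least 1.35-fold higher in MI6h_18h_F against a floor of 3 counts per Sham library, bounds that cover counting error only. The NF-kB site GGGANTTCC stood in 3 of 24 promoters of the chemokine list (12.5%), in none of the cytokine list, and in 1.73% of all promoters. Of promoters of tested genes, 2.26% held it. Of the 3 chemokine list genes with the site, 2 rose and 1 fell.

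Of 29 tested interferon-induced genes, none was called higher and 2 fell, with a median of -0.77. Under library size alone 1 was higher and none lower, and 6 were higher and none lower on TPM. Irf7, a master regulator of the interferon response, had 162, 184 and 79.4 CPM in MI6h_18h_F and 882, 58.8 and 229 CPM in Sham, with Sham 11 alone far above all other libraries, overlap and a log2 fold change of -1.46 ± 0.94 (edgeR adjusted p = 0.196). Summed TPM of the list were 1800, 1879 and 808.2 in MI6h_18h_F and 2721, 768.6 and 1455 in Sham. Without Sham 11, 4 members rose and 1 fell, and the median was 0.281. The ISRE core, GAAA repeated with 2 bases between, through which interferon acts, stood in 13 of 21 promoters of the list (61.9%) and in 3.77% of all promoters. Of promoters of tested genes, 2.95% held it.

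Genes of cell division rose almost without exception. All 19 tested mitosis genes rose, with a median of 1.93, and 20 of 21 DNA replication genes rose, with a median of 1.84. Mki67, the Ki-67 antigen of cycling cells, had 204, 99.2 and 98.5 CPM in MI6h_18h_F, against 37.6, 39.2 and 17.3 CPM in Sham, with no overlap and a log2 fold change of 2.09 ± 0.37 (edgeR adjusted p = 0.000108). MI6h_18h_F 1 held about the sum of the other 2 libraries of its group. Bub1, a kinase of the spindle checkpoint, had 60.3, 43 and 39.9 CPM in MI6h_18h_F, against 15, 11.1 and 11.5 CPM in Sham (1.93 ± 0.24, edgeR adjusted p = 3.84e-06, no overlap). Mcm6, a subunit of the helicase that opens replication origins, had 155, 164 and 149 CPM in MI6h_18h_F, against 17.2, 42.5 and 15 CPM in Sham (2.64 ± 0.29, edgeR adjusted p = 9.42e-07, no overlap), and its MI6h_18h_F values lay close together. Gins2 was the replication gene not called.

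The CHR element TTTGAA, which cell cycle genes use to stay silent outside division, stood in 10 of 14 promoters of the mitosis list (71.4%) and in 18.1% of all promoters, and the variant TTCGAA in 1 of 14 and 1.77%. Among promoters of tested genes, 11.7% held TTTGAA and 2.07% the variant. The E2F site TTTCCCGC stood in 3 of 15 replication promoters (20%), in 1.03% of all and in 1.97% of those of tested genes. The promoter of Mki67 (GRCr8 chr1:199952544-199952843, minus strand) holds 2 TTTGAA elements, shown in capitals.
Mki67: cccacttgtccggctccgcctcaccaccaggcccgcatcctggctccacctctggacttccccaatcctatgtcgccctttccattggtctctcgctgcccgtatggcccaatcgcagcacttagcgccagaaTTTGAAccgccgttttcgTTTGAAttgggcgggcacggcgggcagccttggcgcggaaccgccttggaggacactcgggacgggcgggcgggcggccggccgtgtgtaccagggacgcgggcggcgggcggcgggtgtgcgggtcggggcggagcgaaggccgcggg

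Fibroblast and matrix genes split, with 12 of 31 up, 11 down and a median of 0.207, and 19 up and 5 down under library size alone and 19 up and 3 down on TPM. Without MI6h_18h_F 1, 7 rose and 11 fell. Fn1, the fibronectin of the early wound, had 2716, 5555 and 7596 CPM in MI6h_18h_F, against 203, 489 and 152 CPM in Sham (4.23 ± 0.58, edgeR adjusted p = 8.97e-06, no overlap). Lox, which crosslinks collagen, had 77.6, 52.9 and 43.5 CPM in MI6h_18h_F, against 11.3, 6.82 and 6.47 CPM in Sham (2.82 ± 0.39, edgeR adjusted p = 9.45e-06, no overlap). Col1a1, the chain of type I collagen, was not called, with 2519, 956 and 860.4 CPM in MI6h_18h_F and 1704, 1082 and 1032 CPM in Sham, overlap and a log2 fold change of 0.18 ± 0.35 (edgeR adjusted p = 0.678). MI6h_18h_F 1 lay well above the other libraries of its group, and without it the log2 fold change was -0.49. Members of the list that fell included Gsn, the actin-severing gelsolin, with 305, 197 and 236 CPM in MI6h_18h_F, against 1974, 1329 and 2408 CPM in Sham (-2.95 ± 0.25, edgeR adjusted p = 1.4e-07, no overlap), and Dcn, the proteoglycan decorin, with 528, 350.0 and 277 CPM in MI6h_18h_F, against 1225, 1214 and 1599 CPM in Sham (-1.80 ± 0.35, edgeR adjusted p = 0.000283, no overlap).

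Matrix proteases and their inhibitors rose in 17 of 23 tested cases and fell in 4, with a median of 1.49. Adam12, a protease of activated mesenchymal cells, had 43.9, 28 and 36.8 CPM in MI6h_18h_F, against 0.378, 1.46 and 0.329 CPM in Sham (5.60 ± 0.83, edgeR adjusted p = 2.06e-05, no overlap). Plau, the urokinase that activates plasminogen, had 79.5, 82.3 and 92.2 CPM in MI6h_18h_F, against 2.55, 16.7 and 4.61 CPM in Sham (3.40 ± 0.43, edgeR adjusted p = 4.22e-06, no overlap). Mmp2, the gelatinase of fibroblasts, fell, with 144, 62.9 and 84.8 CPM in MI6h_18h_F, against 389, 259.5 and 366 CPM in Sham (-1.80 ± 0.29, edgeR adjusted p = 4.18e-05, no overlap). Mmp3 and Mmp13 had no count in Sham and were at least 8.18-fold and at least 3.61-fold higher in MI6h_18h_F. Genes of TGF-beta and BMP signalling rose in 12 of 26 cases and fell in 3, with a median of 0.735, and 20 rose with none down under library size alone. Tgfb2 had 91.9, 131 and 124 CPM in MI6h_18h_F, against 13.8, 29.2 and 11.1 CPM in Sham (2.67 ± 0.28, edgeR adjusted p = 6.95e-07, no overlap), and Fst, the follistatin that binds activins, had 7.9, 6.5 and 12 CPM in MI6h_18h_F, against 0.661, 0.91 and 0.219 CPM in Sham (3.83 ± 0.40, edgeR adjusted p = 6.46e-07, no overlap).

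Vessel genes split with the scaling. Endothelial genes counted 5 of 23 up and 6 down with a median of -0.0117, near the shares of all genes (28.6% up, 28.5% down). They counted 11 up and 3 down under library size alone and 17 up and 3 down on TPM. Those that rose included adhesion molecules that slow leukocytes, such as Sele, with 39.5, 45.2 and 32 CPM in MI6h_18h_F, against 9.07, 12.4 and 8.11 CPM in Sham (1.98 ± 0.37, edgeR adjusted p = 0.000224, no overlap), and Icam1, with 46, 52 and 70.6 CPM in MI6h_18h_F, against 25.2, 27.7 and 14.2 CPM in Sham (1.33 ± 0.23, edgeR adjusted p = 0.000101, no overlap). Gpihbp1, which anchors lipoprotein lipase on capillaries, fell, with 11.4, 13.1 and 16.4 CPM in MI6h_18h_F, against 58.9, 80.6 and 106 CPM in Sham (-2.59 ± 0.34, edgeR adjusted p = 6.2e-06, no overlap). Mural cell genes counted 1 of 13 up and 5 down with a median of -0.502, and 5 up and 2 down under library size alone. Markers of epicardium, fat and Schwann cells counted 1 of 11 up and 4 down with a median of -0.931, and 2 up and none down under library size alone, and the fat cell genes Adipoq and Plin1 had no count in either group. Red cell genes had summed TPM of 17700, 16790 and 41510 in MI6h_18h_F and 6775, 4431 and 6060 in Sham, with 1 of 6 called higher, a median of 1.0 and 4 higher under library size alone, and the part of trapped blood in the leukocyte values was not tested.

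Most genes of the unfolded protein and integrated stress responses were higher, with 20 of 29 tested up, 3 down and a median of 0.954. Library size alone gave 25 up and 1 down, and TPM gave 26 up and none down. Asns, the asparagine synthetase induced by ATF4, had 23.2, 43.2 and 34.9 CPM in MI6h_18h_F, against 4.16, 5.19 and 2.96 CPM in Sham (3.03 ± 0.30, edgeR adjusted p = 3.97e-07, no overlap). Hspa5, the chaperone BiP of the endoplasmic reticulum, which is named for its promoter, had 1269, 1805 and 1708 CPM in MI6h_18h_F, against 535, 897 and 805 CPM in Sham (1.096 ± 0.28, edgeR adjusted p = 0.00252, no overlap). Ddit3, the death-linked factor CHOP, fell instead, with 23.7, 21.2 and 24.8 CPM in MI6h_18h_F, against 37.6, 40.2 and 80.4 CPM in Sham (-1.18 ± 0.33, edgeR adjusted p = 0.00473, no overlap), a call that was lost without Sham 41, where the log2 fold change was -0.73. Herpud1 of the same list also fell (-1.43 ± 0.28, edgeR adjusted p = 0.000333). Atf4 itself was not called (0.07 ± 0.25, edgeR adjusted p = 0.814).

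The endoplasmic reticulum stress element (ERSE), CCAAT and CCACG with 9 bases between them, through which ATF6 and XBP1 act, stood in 7 of 25 promoters of that list (28.0%) and in 21 of 27457 promoters of all genes (0.0765%). Among promoters of tested genes it stood in 13 of 9076 (0.143%). All 7 genes with a match had been called higher, as had 20 of 29 tested members of the list and 28.6% of all genes. Matched genes outside the naming rule are named for the match. The 8 matches are shown with the fixed letters in capitals, on the strand that spells them.
Hspa5: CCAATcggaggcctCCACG
Hsp90b1, first match: CCAATcgaaaggagCCACG
Hsp90b1, second match: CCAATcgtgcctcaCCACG
Calr: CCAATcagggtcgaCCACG
Canx: CCAATcatcacgctCCACG
Dnajc3: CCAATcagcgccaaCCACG
Creld2: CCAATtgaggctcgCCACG
Xbp1: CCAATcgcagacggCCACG

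Hsp90b1, a chaperone, had 1272, 1857 and 1816 CPM in MI6h_18h_F and 368, 707 and 406 CPM in Sham, a log2 fold change of 1.74 ± 0.28, and Dnajc3, a cochaperone, had 105, 148 and 132 CPM in MI6h_18h_F and 28.7, 52.5 and 31.6 CPM in Sham, at 1.77 ± 0.25. The calcium-binding chaperones Calr and Canx rose less, by 0.89 ± 0.19 and 0.94 ± 0.18 on the log2 scale, and Creld2 and the factor Xbp1 by 1.31 ± 0.37 and 1.02 ± 0.23. None of the 7 overlapped between groups, and their edgeR adjusted p ran from 1.1e-05 for Dnajc3 to 0.00595 for Creld2. The window of Hspa5 (GRCr8 chr3:38452766-38453065, plus strand), with the match in capitals, shows how near the start the element lies, 43 bases before it.
Hspa5: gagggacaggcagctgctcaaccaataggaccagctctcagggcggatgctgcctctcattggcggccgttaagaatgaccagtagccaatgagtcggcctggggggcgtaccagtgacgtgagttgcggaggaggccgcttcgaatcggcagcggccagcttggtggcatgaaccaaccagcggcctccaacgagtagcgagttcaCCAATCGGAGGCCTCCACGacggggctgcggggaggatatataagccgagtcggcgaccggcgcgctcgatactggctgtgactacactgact

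Other stress lists were mixed. Immediate early genes rose in 10 of 19 cases and fell in 3, with a median of 0.809. Of the 19 genes, 14 rose and 1 fell under library size alone, and 15 rose with none down on TPM. Fosl1, a partner of JUN in AP-1, had 22.6, 44.2 and 37.8 CPM in MI6h_18h_F, against 0.85, 2.46 and 0.658 CPM in Sham (4.68 ± 0.38, edgeR adjusted p = 1.4e-07, no overlap). Myc, a growth factor-induced regulator, had 92.8, 179 and 152 CPM in MI6h_18h_F, against 9.07, 52.2 and 9.32 CPM in Sham (2.58 ± 0.47, edgeR adjusted p = 0.000146, no overlap, and 3.98 without Sham 31). Klf2, a flow-induced factor of endothelium, fell, with 82.6, 57.9 and 61.1 CPM in MI6h_18h_F, against 165, 187 and 238 CPM in Sham (-1.55 ± 0.25, edgeR adjusted p = 5.28e-05, no overlap). Heat shock proteins counted 2 of 18 up and 10 down with a median of -0.657. They counted 8 up and 5 down under library size alone and 10 up and 5 down on TPM. Hspb6, a small heat shock protein of muscle, had 479.9, 271 and 139 CPM in MI6h_18h_F, against 1958, 2086 and 2371 CPM in Sham (-2.85 ± 0.48, edgeR adjusted p = 6.92e-05, no overlap), while Hsph1, a cytosolic cochaperone, had 150.5, 241 and 181 CPM in MI6h_18h_F, against 59.1, 76.3 and 91.1 CPM in Sham (1.34 ± 0.18, edgeR adjusted p = 9.14e-06, no overlap).

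NRF2 targets and antioxidant genes counted 8 of 26 up and 9 down with a median of 0.465, near the shares of all genes (28.6% up, 28.5% down). They counted 15 up and 7 down under library size alone. Slc7a11, the cystine importer that feeds glutathione synthesis, had 15.1, 26.7 and 11.7 CPM in MI6h_18h_F, against 0.661, 1.09 and 0 CPM in Sham (4.85 ± 0.59, edgeR adjusted p = 2.96e-06, no overlap). Gclc, the rate-limiting enzyme of that synthesis, had 89.1, 158 and 161 CPM in MI6h_18h_F, against 28.7, 50 and 29.6 CPM in Sham (1.91 ± 0.25, edgeR adjusted p = 6.58e-06, no overlap). Prdx3, the peroxiredoxin of mitochondria, fell, with 156, 148 and 118 CPM in MI6h_18h_F, against 553, 509 and 827 CPM in Sham (-2.16 ± 0.24, edgeR adjusted p = 1.35e-06, no overlap). The ARE core TGACNNNGC stood in 8 of 21 promoters of the list (38.1%), in 12.2% of all and in 14.9% of those of tested genes. Of the 8 list genes with the core, 2 fell and none rose.

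Cell death genes rose in 11 of 21 cases and fell in 1, with a median of 0.753, and 18 rose with none down under library size alone. Acsl4, an enzyme that makes membranes prone to ferroptosis, had 151, 235 and 165 CPM in MI6h_18h_F, against 30.5, 50.9 and 28 CPM in Sham (2.33 ± 0.27, edgeR adjusted p = 1.59e-06, no overlap). Ripk3, a kinase of necroptosis, had 49, 61.8 and 70.8 CPM in MI6h_18h_F, against 6.52, 24.5 and 2.52 CPM in Sham (2.43 ± 0.46, edgeR adjusted p = 0.000224, no overlap), and without Sham 31 its log2 fold change was 3.77.

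Among lipid mediators, 11 of 18 tested genes rose and 4 fell, with a median of 1.24, and 13 rose and 3 fell under library size alone and on TPM. Ptgs2, the inducible cyclooxygenase, had 7.37, 21.2 and 11.8 CPM in MI6h_18h_F, against 0, 1.46 and 0.548 CPM in Sham (4.29 ± 0.80, edgeR adjusted p = 0.000187, no overlap), and Pla2g4a, which frees arachidonic acid, had 56.5, 94.2 and 101 CPM in MI6h_18h_F, against 15.8, 37.4 and 24 CPM in Sham (1.71 ± 0.29, edgeR adjusted p = 7.04e-05, no overlap). Coagulation and fibrinolysis genes rose in 8 of 18 cases and fell in 4, with a median of 0.669, and 11 rose with none down under library size alone. The direction of clock genes depended on the scaling, with 1 of 15 up, 9 down and a median of -0.502 with TMM. It was 4 up and 3 down under library size alone, and 8 up and 1 down on TPM. Per1, a repressor of the circadian loop, had 30.3, 20.6 and 24.8 CPM in MI6h_18h_F, against 107, 55.2 and 68.9 CPM in Sham (-1.61 ± 0.29, edgeR adjusted p = 0.00016, no overlap).

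Genes of mitochondrial dynamics and upkeep counted 1 of 23 up and 17 down with a median of -1.15, and 6 up and 9 down under library size alone and 7 up and 8 down on TPM. Mtfp1, a fission protein, had 5.71, 7.4 and 3.87 CPM in MI6h_18h_F, against 64, 50 and 110.2 CPM in Sham (-3.72 ± 0.33, edgeR adjusted p = 1.57e-07, no overlap). Mfn1, a fusion protein of the outer membrane, had 60.9, 49.5 and 50.2 CPM in MI6h_18h_F, against 150.5, 153 and 218 CPM in Sham (-1.70 ± 0.18, edgeR adjusted p = 6.38e-07, no overlap). Lysosome and autophagy genes counted 9 of 21 up and 8 down with a median of -0.0609, and 13 up and 3 down under library size alone. Atg7, an enzyme of autophagosome formation, had 31, 41.9 and 43.8 CPM in MI6h_18h_F, against 8.78, 15.1 and 6.03 CPM in Sham (1.96 ± 0.26, edgeR adjusted p = 7e-06, no overlap), while Ulk1, the kinase that starts it, had 49.7, 35.6 and 32 CPM in MI6h_18h_F, against 240.1, 143 and 207 CPM in Sham (-2.33 ± 0.27, edgeR adjusted p = 1.76e-06, no overlap). Cytosolic ribosomal proteins counted 1 of 25 up, 1 down and a median of -0.188, and 11 up and none down under library size alone and 20 up and none down on TPM.

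Beyond the lists, the rule on size named further genes at both ends. Msr1, the scavenger receptor of macrophages, had 171, 282 and 396 CPM in MI6h_18h_F, against 4.63, 29.8 and 4.71 CPM in Sham (4.43 ± 0.61, edgeR adjusted p = 9.13e-06, no overlap). Fcar, an Fc receptor for IgA, had 12.1, 27.7 and 21.5 CPM in MI6h_18h_F, against 0.189, 1.64 and 0 CPM in Sham (4.98 ± 0.80, edgeR adjusted p = 4.55e-05, no overlap, and 7.58 without Sham 31). Dhrs7c, a reductase of the sarcoplasmic reticulum, had 4.25, 1.31 and 1.18 CPM in MI6h_18h_F, against 115, 139.8 and 202 CPM in Sham (-6.08 ± 0.63, edgeR adjusted p = 5.67e-07, no overlap). Rpl3l, the ribosomal protein that replaces RPL3 in muscle, had 7.83, 1.94 and 1.97 CPM in MI6h_18h_F, against 128, 155 and 268 CPM in Sham (-5.55 ± 0.54, edgeR adjusted p = 3.72e-07, no overlap). Rpl3 itself was the ribosomal gene that rose, with 1045, 1036 and 1192 CPM in MI6h_18h_F, against 289, 912 and 372 CPM in Sham (1.06 ± 0.30, edgeR adjusted p = 0.00615, no overlap, and 1.76 without Sham 31).

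Whether these values differ from late reperfusion without F was tested directly, MI6h_18h_F over MI6h_R. Sham is no side of this contrast, but its libraries share in the scaling and the spread of the fit. Of 11742 genes, 1121 were called (9.55%), 457 higher in MI6h_18h_F (3.89%) and 664 lower (5.65%). The balance of directions depended on the fit, with 551 higher and 465 lower when only the libraries compared were fitted, and 266 higher and 979 lower on TPM. Mitosis genes were higher, with 16 of 19 called and a median of 1.76. Bub1 had 60.3, 43 and 39.9 CPM in MI6h_18h_F, against 13.1, 14.7 and 16.4 CPM in MI6h_R, with no overlap and a log2 fold change of 1.69 ± 0.24 (edgeR adjusted p = 0.00264). Kif23, a motor of cytokinesis, had 54.5, 31.4 and 25.9 CPM in MI6h_18h_F, against 6.69, 8.73 and 8.38 CPM in MI6h_R (2.23 ± 0.36, edgeR adjusted p = 0.00363, no overlap). Mki67 had 204, 99.2 and 98.5 CPM in MI6h_18h_F, against 36.5, 43.6 and 47.2 CPM in MI6h_R (1.66 ± 0.36, edgeR adjusted p = 0.0102, no overlap). MI6h_18h_F 1 was the highest library for all 3, and the 2 others were still above all MI6h_R libraries.

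Of the fibroblast and matrix list, 7 of 31 were higher than in MI6h_R. Col1a1 had 2519, 956 and 860.4 CPM in MI6h_18h_F, against 334, 391 and 355 CPM in MI6h_R (2.004 ± 0.37, edgeR adjusted p = 0.00496, no overlap). Esrra was lower, with 52.7, 56.4 and 50.2 CPM in MI6h_18h_F, against 113, 105 and 101 CPM in MI6h_R, no overlap and a log2 fold change of -0.997 ± 0.16 (edgeR adjusted p = 0.00363), while the log2 fold changes of Ppara (0.17 ± 0.68, edgeR adjusted p = 0.913) and Ppargc1a (1.12 ± 0.81, edgeR adjusted p = 0.408) missed the threshold. The PPARA targets Cd36 (0.97 ± 0.56, edgeR adjusted p = 0.29), Plin2 (-0.24 ± 0.31, edgeR adjusted p = 0.675) and Angptl4 (-0.82 ± 0.55, edgeR adjusted p = 0.366) were not called against MI6h_R either. Arc, an activity-induced immediate early gene, was lower, with 2.52, 6.57 and 4.99 CPM in MI6h_18h_F, against 24, 16.2 and 26.2 CPM in MI6h_R (-2.24 ± 0.32, edgeR adjusted p = 0.00264, no overlap), as were 5 of 19 immediate early genes. Wdr46, a protein of ribosome assembly, had 25.5, 24.1 and 30.6 CPM in MI6h_18h_F, against 74.9, 63.8 and 60.1 CPM in MI6h_R (-1.31 ± 0.19, edgeR adjusted p = 0.00264, no overlap). The count of 1121 was 551 without MI6h_18h_F 1, 266 without MI6h_18h_F 2, 340 without MI6h_R 11, 462 without MI6h_R 21 and 666 without MI6h_R 31, and it was 1737 with DESeq2. Reperfused hearts with and without F differ in all that was done with F, and library preparation by group is not given, so F and batch cannot be told apart.

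Against ligation for 24 h, MI24h_F, 57 genes were called (0.485%), 17 higher in MI6h_18h_F (0.145%) and 40 lower (0.341%). Among them were 3 of 20 glycolysis genes and 4 of 23 hypoxia targets, all lower in MI6h_18h_F. Slc2a1 had 48, 153 and 84.5 CPM in MI6h_18h_F, against 271, 397 and 327 CPM in MI24h_F (-1.80 ± 0.34, edgeR adjusted p = 0.0218, no overlap). Vegfa had 60.5, 106 and 48.9 CPM in MI6h_18h_F, against 161, 279.8 and 265 CPM in MI24h_F (-1.72 ± 0.33, edgeR adjusted p = 0.0246, no overlap). Tpi1 had 299, 376 and 359 CPM in MI6h_18h_F, against 752, 819.7 and 828 CPM in MI24h_F (-1.22 ± 0.20, edgeR adjusted p = 0.0125, no overlap). Mrc1 was higher, with 256, 246 and 322 CPM in MI6h_18h_F, against 117, 48.2 and 69.6 CPM in MI24h_F (1.81 ± 0.32, edgeR adjusted p = 0.0156, no overlap), while F13a1, the fibrin-crosslinking factor of macrophages and platelets, was lower, with 63.9, 76.8 and 65.5 CPM in MI6h_18h_F, against 322, 412 and 361 CPM in MI24h_F (-2.41 ± 0.35, edgeR adjusted p = 0.00969, no overlap). Cxcr4, the receptor of CXCL12, had 67.1, 108 and 73.4 CPM in MI6h_18h_F, against 214, 259 and 237 CPM in MI24h_F (-1.52 ± 0.23, edgeR adjusted p = 0.0107, no overlap). The count was 0 without MI6h_18h_F 1 and without MI24h_F 2, 7 without MI6h_18h_F 4, 2 without MI24h_F 4, and 206 with DESeq2.

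Against early release, MI1h_23h_F, edgeR called 0 genes, although 1597 had an unadjusted p under 0.05, DESeq2 called 88 and limma-voom with quality weights 1392. Without MI6h_18h_F 1, which lay beside the MI1h_23h_F libraries on the first component, edgeR called 233. Since edgeR called no gene with all libraries, the missing calls of muscle genes tell nothing particular about them. Tnni3 was at -1.27 ± 0.45 and Fabp3 at -1.62 ± 0.66 on the log2 scale (edgeR adjusted p = 0.274 and 0.31). The median was -1.04 for the sarcomere list and -1.3 for phosphate and oxygen transfer, against -0.0212 for all genes.

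**Figure D5:**
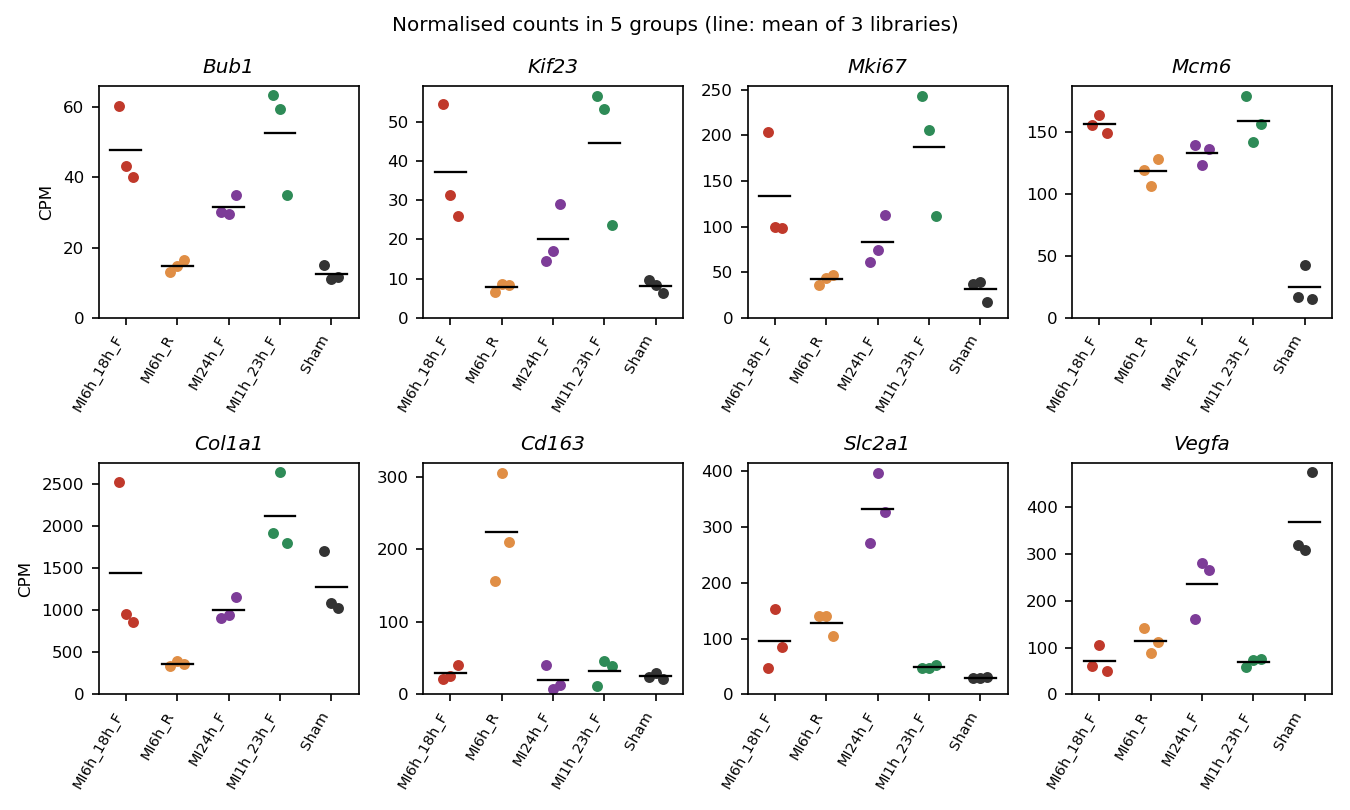
CPM on a linear axis in each library of MI6h_18h_F, MI6h_R, MI24h_F, MI1h_23h_F and Sham for 8 genes, with the group mean as a line. Bub1, Kif23, Mki67 and Col1a1 are higher in MI6h_18h_F than in MI6h_R, and Slc2a1 and Vegfa are lower in MI6h_18h_F than in MI24h_F.

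One transcript was high in every library with F. RGD1359290, which RefSeq lists as the pseudogene Rpl17-ps16, had 10, 13.4 and 11.4 CPM in MI6h_18h_F, against 0.0945, 0.091 and 0.11 CPM in Sham, a log2 fold change of 6.77 ± 0.61 (edgeR adjusted p = 1.87e-07), and 0.339, 0.0602 and 0.11 CPM in MI6h_R. Over the series it lay between 9.02 and 19.4 CPM in the 9 libraries with F and between 0 and 0.34 CPM in the 12 libraries without. It was noticed first, and a gap of at least 4-fold after adding 0.5 CPM, set afterwards, was met by no other gene. Of 11742 genes tested, 46 were higher and 48 lower with F without overlap between libraries with and without F. The libraries without F include those of Sham. Reads of a pseudogene can belong to its parent gene or its copies, and whether F or a shared batch goes with it cannot be told apart.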

How the data were processed

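RNA from 21 infarct zone samples of rat heart was extracted with an on-column DNase step, prepared with a NEBNext Ultra kit and read on an Illumina HiSeq, per the labels' protocols. Reads were aligned with STAR 2.7.3a and quantified with RSEM 1.3.1 on build rn7, per the submitters' processing notes. The gene annotation and the strand setting are not given in the sources used here. The deposited tables hold estimated counts per gene symbol, which were rounded to whole numbers, and TPM per gene symbol, which the authors computed alongside. Both tables repeat identical counts for 353 sets of symbols (1131 symbols, 492 of them tested), whose rows cannot be separated.

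Counts of all 21 libraries were fitted in 1 model with 7 groups by edgeR 4.0.16 (quasi-likelihood test, TMM scaling, filterByExpr filter on low counts) in R 4.3.3, with Benjamini-Hochberg adjustment across 11742 genes and a threshold of 0.05 in each of 4 comparisons. A floor of 3 counts per library bounds folds against groups with no count. Alternatives were DESeq2 1.42.0, limma 3.58.1 (voom with quality weights, and trend on log2(TPM + 1) and log2(TPM + 0.1)), each library left out, a replicate block, a fit of only the libraries compared, scaling by library size alone or by median-of-ratios factors, the table without the low-count filter, without mitochondrial genes, or with identical rows kept once. In data simulated from these libraries with 11742 genes, 200 genes with a mean of at least 10 CPM were changed, as many up as down. There edgeR found 120 with 9 false calls in the comparison with Sham. Each fold size had 50 genes, and 5 were recovered for 1.5-fold, 19 for 2-fold, 47 for 4-fold and 49 for 8-fold changes. In the real comparison 57.2% of genes were called and the scaling factors of both groups lay apart. The simulation does not copy this, so its rates may not hold there.

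The members and the 44 gene lists were chosen with earlier results of these data known. Named genes are the receptors of the study's title and their coactivators, the 15 largest rises and 15 largest falls among called genes of at least 10 CPM without overlap, up to 5 called members of a list in each direction by smallest p with up to 3 of the highest CPM not called, and up to 8 called genes in each direction of the other comparisons, and from each order a part is named. Genes named for a promoter match are outside this rule, and some genes that the rule names are not reported here. Promoter sequences come from RefSeq (GRCr8) and were used for letters only, since the files use rn7.

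Replicate numbers were checked for pairing. Deviations of same-numbered libraries of MI6h_18h_F and MI24h_F correlated at -0.164, -0.018 and 0.0628, and those of MI6h_18h_F and MI1h_23h_F at -0.332 and -0.0859, so the numbers were not taken as pairs. Figures were drawn with matplotlib 3.10.9.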

Additional observations from a re-analysis of the deposited data

Results flagged for a closer look

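MI6h_18h_F differed from another injured group in a test of the difference itself for 1121 genes against MI6h_R and 57 genes against MI24h_F. Among genes named above, those higher in MI6h_18h_F than in MI6h_R were RGD1359290 (log2 fold change 5.96), Kif23 (2.23), Col1a1 (2.00), Bub1 (1.69), Mki67 (1.66), Cxcr4 (1.03) and Canx (0.58). Those lower in MI6h_18h_F than in MI6h_R were Cxcl3 (-2.89), Arc (-2.24), Gpihbp1 (-1.41), Ndufa13 (-1.32), Wdr46 (-1.31), Per1 (-1.20), Cox5b (-1.18), Klf2 (-1.01), Esrra (-0.997) and Fosl1 (-0.97). The list medians of the respiratory chain against MI6h_R were -0.0893 for complex I and -0.0326 for complexes II to V, beside -0.0201 for all genes. Called lower were 1 of 32 complex I genes and 2 of 30 of complexes II to V, near the share of all genes (5.65%). Against MI24h_F, Gja5 (1.89) and Mrc1 (1.81) were higher in MI6h_18h_F. Lower in MI6h_18h_F than in MI24h_F were F13a1 (-2.41), Slc2a1 (-1.80), Vegfa (-1.72), Cxcr4 (-1.52), Ackr3 (-1.38) and Tpi1 (-1.22).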

How the results depend on the processing

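Of 2937 recomputed values of 184 single genes and list medians under 23 settings, 2806 kept their direction and their side of the threshold, 77 lost and 13 gained a call, 8 list medians moved without turning, and 33 changed direction. Against Sham, genes that rose and fell numbered 6490 and 1560 under library size alone, 7373 and 1272 on log2(TPM + 1), and 7501 and 1251 on log2(TPM + 0.1), because these scalings move the typical gene. Calls against Sham ranged from 5638 to 6718 when 1 library was left out. Against MI6h_R, calls numbered 1737 with DESeq2 (794 higher) and 2007 with limma-voom (886 higher, 1121 lower), with 266 higher on log2(TPM + 1) and 551 higher and 465 lower with only the libraries compared, and leaving out 1 library gave 266 to 911 calls, 110 to 413 higher and 156 to 498 lower. Against MI24h_F, calls numbered 206 with DESeq2 (66 higher, 140 lower) and 344 with limma-voom (97 higher, 247 lower), 7 were higher with only the libraries compared, and leaving out 1 library gave 0 to 58 calls, 0 to 16 higher and 0 to 42 lower. Against MI1h_23h_F, calls numbered 88 with DESeq2 (44 higher, 44 lower), 1392 with limma-voom (598 higher, 794 lower) and 1 with only the libraries compared (1 higher), and leaving out 1 library gave 0 to 233 calls, 0 to 66 higher and 0 to 167 lower. The cause of these differences between tools was not tested.

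With the replicate number as a block, 46 genes were called against MI24h_F (9 higher, 37 lower) and 0 against MI1h_23h_F, and since the numbers do not pair the libraries this is no test of pairs. Against Sham and MI6h_R there is no such fit, since they share no replicate numbers with MI6h_18h_F.

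List medians relative to all genes turned for hypoxia targets with limma-voom (0.0789) and without Sham 11 (0.00463), for lymphocyte markers on log2(TPM + 1) (-0.108), for interferon genes without Sham 11 (0.223), and for fibroblast genes with limma-voom (-0.0431) and without MI6h_18h_F 1 (-0.0979). They turned for endothelial genes on log2(TPM + 1) (0.181) and log2(TPM + 0.1) (0.0153), for ribosomal proteins on log2(TPM + 1) (0.0975) and without Sham 31 (0.0692), and for lysosome genes on log2(TPM + 1) (0.143) and without MI6h_18h_F 1 (0.0595) or Sham 31 (0.272). Mast cell and eosinophil markers turned on log2(TPM + 1) (-0.551) and log2(TPM + 0.1) (-0.00761) and without MI6h_18h_F 1 (-0.215), MI6h_18h_F 2 (-0.00126) or Sham 41 (-0.0848). Among genes not called, log2 fold changes turned for Col1a1 without MI6h_18h_F 1 (-0.49), for Cpt1a under library size alone (0.72), on log2(TPM + 1) (0.95) and log2(TPM + 0.1) (1.00) and without Sham 11 (0.0217) or 41 (0.0287), for Des under library size alone (0.17), on log2(TPM + 1) (0.47) and log2(TPM + 0.1) (0.47), for Gins2 under library size alone (0.59), on log2(TPM + 1) (0.72) and log2(TPM + 0.1) (0.89) and without Sham 31 (0.0356), and for Irf7 on log2(TPM + 1) (0.29) and log2(TPM + 0.1) (0.31). When 1 library was left out, the relative median ranged from -0.536 to 0.00463 for hypoxia targets, from -0.215 to 0.15 for mast cell and eosinophil markers, from -1.22 to 0.223 for interferon genes, from -0.0979 to 0.413 for fibroblast genes, from -0.5 to 0.0692 for ribosomal proteins and from -0.353 to 0.272 for lysosome genes. The log2 fold change then ranged from -0.49 to 0.45 for Col1a1, from -0.28 to 0.0287 for Cpt1a and from -0.31 to 0.0356 for Gins2.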
